A study of Mus musculus with 2 samples.

Results

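The genes described here encode the proteins of the cytosolic ribosome. They were chosen by name: every gene whose symbol is Rpl or Rps followed by a digit, an a, or a p and a digit, with at least 1 protein-coding transcript, leaving out numbered pseudogenes, the S6 kinases and Rps19bp1. The rule found 85 of 55536 annotated genes, of which 49 belong to the large subunit, 33 to the small subunit and 3 to the acidic stalk. Among them were 8 paralogs, genes that resemble another member closely, namely Rpl3l, Rpl7l1, Rpl10l, Rpl22l1, Rpl36al, Rpl39l, Rps27l and Rps27rt. A further 7 symbols of this form had no protein-coding transcript and were left out. Total RNA, reduced in ribosomal RNA, was sequenced from the hearts of male B6CASTF1/J mice (F1 hybrids between CAST/EiJ and C57BL/6J) aged 18 to 20 months. The 2 libraries are biological replicates 2 and 1, made with 300 ng of input and synthetic spike-in RNAs. Both carry the same labels of strain, sex, age and tissue and form 1 group, so no condition could be compared. They have different biosample identifiers but the same donor identifier, so that differences between them may be technical.

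Ribosomal proteins assemble on ribosomal RNA into a small subunit, which decodes the messenger RNA, and a large subunit, which joins the amino acids. Each protein is present in about the same number in a ribosome, and their messenger RNAs commonly begin with a C and a run of pyrimidines (the terminal oligopyrimidine tract), through which mTOR signalling and the protein Larp1 control their translation. The genes have left many processed pseudogenes, copies of the spliced messenger RNA inserted elsewhere in the genome, whose sequence can be nearly that of the gene. Some members have a paralog with a narrower range of tissues: Rpl3l is known for its expression in heart and skeletal muscle, where it can take the place of Rpl3 near the catalytic centre of the large subunit.

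Stretches of the coding sequence, from GENCODE M21 transcripts, show which of these genes a read can tell apart. Rpl3l (chr17:24727820-24736143, plus strand, mm10) and Rpl3 (chr15:80077791-80091868, minus strand) are printed over the 90 gapless bases where they differ least and the 90 where they differ most, with differing bases in capitals. The first pair covers bases 685 to 774 of both coding sequences and holds 16 differences.
Rpl3l: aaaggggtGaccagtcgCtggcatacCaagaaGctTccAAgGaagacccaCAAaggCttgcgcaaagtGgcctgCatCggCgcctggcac
Rpl3: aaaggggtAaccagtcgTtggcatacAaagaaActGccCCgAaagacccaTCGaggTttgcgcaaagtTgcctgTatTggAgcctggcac
The second pair covers bases 856 to 945 of both and holds 34 differences.
Rpl3l: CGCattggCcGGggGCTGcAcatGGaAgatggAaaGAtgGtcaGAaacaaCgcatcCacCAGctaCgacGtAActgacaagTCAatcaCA
Rpl3: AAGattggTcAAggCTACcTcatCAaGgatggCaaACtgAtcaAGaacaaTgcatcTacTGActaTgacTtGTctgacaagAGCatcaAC
Over 1208 aligned bases the 2 coding sequences were 74.4% identical, their longest identical run was 22 bases, and they shared no stretch of 100 bases.

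Rpl5, which carries a small ribosomal RNA into the large subunit, shows the opposite case. The first 90 bases of its coding sequence (chr5:107900502-107909005, plus strand) are set beside those of Gm15500, a processed copy at chr7:114705217-114706235 on the minus strand, and no base is in capitals because none differs.
Rpl5: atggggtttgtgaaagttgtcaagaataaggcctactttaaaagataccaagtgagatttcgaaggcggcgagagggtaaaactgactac
Gm15500: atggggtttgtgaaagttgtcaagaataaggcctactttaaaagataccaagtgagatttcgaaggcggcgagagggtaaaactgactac
Across the whole coding sequence of Rpl5, 894 of 894 bases were identical in Gm15500. A read that lies inside the coding sequence therefore matches both.

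Ribosomal protein genes were abundant in both libraries. They held 3.95% of the TPM (an abundance scaled by transcript length and by the library's total) of nuclear protein-coding genes in replicate 2 and 4.16% in replicate 1, or 4.05% ± 0.151 (SD, n = 2). By counts, which favour long transcripts, they held 233774 counts or 1.10% in replicate 2 and 291852 counts or 1.20% in replicate 1. The median member stood at 171 TPM in replicate 2 and 203.5 in replicate 1, beside 8.11 and 8.96 TPM over 10882 nuclear protein-coding genes at 1 TPM or more in both. Of the 85 members, 83 reached 1 TPM in both libraries and 60 reached 100 TPM, and 59 were among the 500 nuclear protein-coding genes of highest TPM in both. All 5 cardiomyocyte markers were present, from 3506 TPM (Tnni3, replicate 2) to 9599 TPM (Myl2, replicate 1). The libraries held 37281459 counts in replicate 2 and 38858481 in replicate 1.

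The stalk proteins, which recruit elongation factors to the ribosome, included the highest member of the gene table. Rplp1 stood at 482 TPM in replicate 2 and 603 in replicate 1, Rplp2 at 301 and 402, and Rplp0, the protein that anchors the other two, at 190 and 251. Proteins Rplp1 and Rplp2 are known to be present as pairs on each ribosome. In both libraries the order in the gene table was Rplp1, Rplp2, Rplp0. In the second deposited quantification, a transcript table with estimated counts, Rplp2 was above Rplp1, at 399 and 520 TPM against 347 and 479, and Rpl41 was the highest member, at 741 and 961. With processed copies of each gene added to the gene table, Rps29, at 501 and 611 TPM, stood above Rplp1.

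Small-subunit genes had a median of 188 TPM in replicate 2 and 221 in replicate 1, with 33 of 33 at 1 TPM or more and 27 at 100 TPM or more in both. The zinc-binding proteins Rps29 and Rps27 led, with Rps29 at 468 TPM in replicate 2 and 484 in replicate 1, and Rps27 at 387 and 426. Rps14, which lines the decoding platform, stood at 308 and 403, and Rps24, in humans a gene of Diamond-Blackfan anaemia, at 315 and 380. The order of this pair was not the same in both libraries, since Rps24 stood above Rps14 in replicate 2 and below it in replicate 1. Rps6, the substrate of the S6 kinases, was near the middle, at 188 TPM in replicate 2 and 215 in replicate 1. The lowest small-subunit gene other than paralogs was Rps23, of the decoding centre, at 64.7 and 68.5, followed by Rps7 at 75.95 in replicate 2 and by Rps12 at 96.8 in replicate 1.

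Large-subunit genes had a median of 131 TPM in replicate 2 and 156 in replicate 1, with 47 of 49 at 1 TPM or more and 30 at 100 TPM or more in both. Rpl41, whose protein is a very short peptide, stood at 450 TPM in replicate 2 and 600 in replicate 1. Rpl23a, near the exit of the peptide tunnel, stood at 296 and 349. The lowest at 1 TPM or more were Rpl5 at 9.99 and 11.4, Rpl27 at 15.1 and 19.3, the paralog Rpl7l1 at 19.3 and 24.9, and Rpl12 at 19.4 and 26.6. The paralog Rps27rt of the small subunit, at 9.53 and 7.26, was lower still. Rpl11, which joins the ribosome together with Rpl5, stood far above it in the gene table, at 89.4 TPM in replicate 2 and 127 in replicate 1. With processed copies of each gene added the order turned, with Rpl5 at 185 and 220 TPM and Rpl11 at 156 and 209. In the estimated-count table Rpl11 was above Rpl5, at 212 and 322 TPM against 102 in both libraries. Among the 77 members that are not paralogs the highest level was 48.3 times the lowest in replicate 2 and 53.1 times in replicate 1, with a coefficient of variation of 55.6% and 55.3%.

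**Figure D1:**
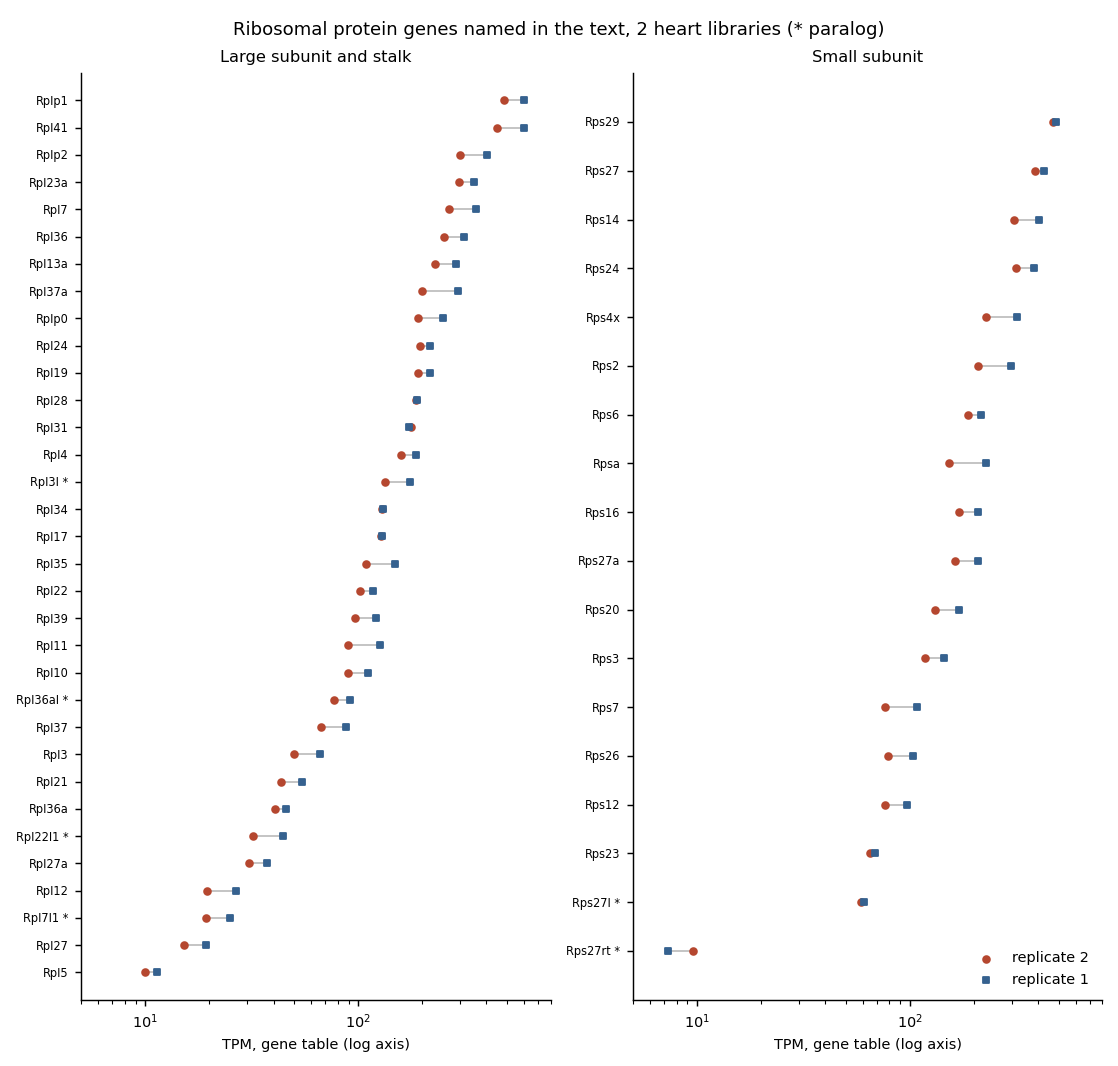
TPM in the gene table (log axis) of the members above 0 that are named in the text, with large-subunit and stalk genes on the left and small-subunit genes on the right. Red circles are replicate 2, blue squares replicate 1 and asterisks mark paralogs; Rplp1 lies highest, at 482 and 603 TPM, and a tail of low members reaches Rpl5 at 9.99 and 11.4.

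Rpl3l was the most abundant of the 8 paralogs and stood above the gene it resembles. It had 133 TPM in replicate 2 and 175 in replicate 1, against 49.8 and 65.8 TPM of Rpl3. In both libraries the Rpl3l level was above both Rpl3 levels, by 2.68-fold in replicate 2 and 2.65-fold in replicate 1. Rpl3l made up 72.7% ± 0.126 of the summed TPM (SD, n = 2). By counts its share was 77.5% in replicate 2 (95% exact Clopper-Pearson interval 76.4 to 78.5) and 78.7% in replicate 1 (77.8 to 79.5), intervals that cover counting error only. In bulk tissue, fewer cells of a type and less RNA per cell cannot be told apart, so these are shares of RNA in the whole heart.

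The Rpl3l to Rpl3 comparison is limited from the side of Rpl3. Of the 100-base stretches of the coding sequence, 100% of those of Rpl3l and 21.7% of those of Rpl3 occurred in no other gene. The copy Rpl3-ps1 on the X chromosome matches 1207 of 1209 aligned bases of the Rpl3 coding sequence and was listed at 36.5 TPM in replicate 2 and 47.5 in replicate 1. Adding it to Rpl3 gave 86.3 TPM in replicate 2 and 113 in replicate 1, still below Rpl3l, which was then 1.54-fold higher in both libraries and 60.7% of the sum. In the estimated-count table Rpl3l was at 177 TPM in replicate 2 and 227 in replicate 1, against 83.5 and 92.0 TPM of Rpl3. The transcript Rpl3l-202 held 130 of the gene's TPM in replicate 2 and 171 in replicate 1. Of 8 skeletal muscle markers only Ckm, which heart muscle also uses, reached 1 TPM in both libraries, and the skeletal myosins Myh2 and Myh4 were at 0.

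Rpl36al, the autosomal paralog of X-linked Rpl36a, was the other paralog above its partner in the gene table. It stood at 77.1 TPM in replicate 2 and 91.8 in replicate 1, against 40.7 and 46.0 TPM of Rpl36a. Their proteins of 106 residues are identical and the coding sequences 87.9% identical, with a longest identical run of 24 bases. The order did not hold once copies were counted: Rpl36a with its copies had 112 TPM in replicate 2 and 137 in replicate 1, and the Rpl36al share was then 40.5%. In the estimated-count table Rpl36al was at 84.2 and 111 TPM against 93.8 and 119 TPM of Rpl36a, a share of 47.7%.

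Other paralogs stood below their partners. Rps27l, a target of p53, had 58.9 TPM in replicate 2 and 61.0 in replicate 1, against 387 and 426 TPM of Rps27, a share of 12.9% ± 0.468 although the proteins are 96.4% identical. Rpl22l1 had 32.0 TPM in replicate 2 and 44.2 in replicate 1, against 102 and 117 TPM of Rpl22, an RNA-binding protein known to restrain its paralog. Its share of the pair was 25.6% ± 2.56, but 4.28% when only protein-coding transcripts were counted. Rpl7l1, 44.7% identical to Rpl7 as a protein, had 19.3 TPM in replicate 2 and 24.9 in replicate 1, against 268 and 358 TPM of Rpl7. The estimated-count table gave nearly the same values for that pair, 19.7 and 26.2 TPM against 269 and 359.

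For Rps27rt, a retrogene on chromosome 9, 255 of 255 coding bases match Rps27. It was listed at 9.53 TPM in replicate 2 and 7.26 in replicate 1 in the gene table, and at 0 in both libraries in the estimated-count table. Which gene its reads came from is therefore uncertain. The paralogs Rpl10l and Rpl39l, known for their expression in testis germ cells, had no counts in either library. A floor of 3 counts would allow up to 0.107 TPM of Rpl10l in replicate 2 and 0.106 in replicate 1, and up to 0.170 and 0.169 TPM of Rpl39l. Their X-linked partners were present, Rpl10 at 89.0 and 111 TPM and Rpl39 at 96.6 and 121, while 6 of 6 testis germ cell markers were under 1 TPM with a summed level of 0.05 in replicate 2 and 0.03 in replicate 1.

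**Figure D2:**
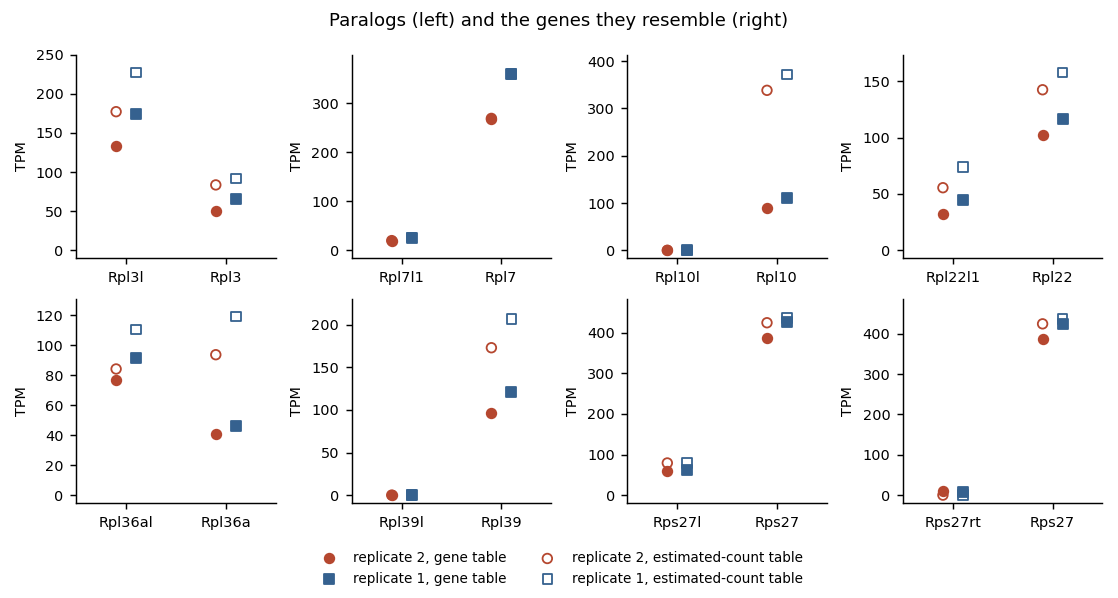
TPM of each paralog (left in each panel) and the gene it resembles (right). Red circles are replicate 2 and blue squares replicate 1; filled symbols are the gene table and open symbols the estimated-count table. Rpl3l lies above Rpl3 in both tables, and Rpl36al lies above Rpl36a only in the gene table.

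Processed copies held a sizeable part of the reads assigned to this gene family. Of the 85 members, 74 shared at least 1 stretch of 100 bases with a pseudogene, and the coding sequence was unique to the gene in a median of 30.5% of its stretches. A copy was taken as a gene annotated as a pseudogene, or with -ps in its symbol, that shares at least 50% of its stretches with members. There were 97 copies of 50 members, with 41531 counts in replicate 2 and 50031 in replicate 1, or 15.1% and 14.6% of the counts of members and copies together. By the mean of both libraries, the most counts were assigned to Gm15500 (Rpl5), Rpl10-ps3, Rps23-ps1, Gm6472 (Rps7) and Rpl28-ps1. Gm6472 had 2439 counts in replicate 2 and 2316 in replicate 1, above Rps23-ps1 in replicate 2 but below Rpl28-ps1 and Gm10275 in replicate 1. In the estimated-count table the copies held 5.36% in replicate 2 and 5.19% in replicate 1, and Rpl10-ps3 and Rpl28-ps1 were at 0.

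In the gene table, copies exceeded the gene in TPM for 11 members: Rpl28, Rpl10, Rps7, Rps12, Rps23, Rpl21, Rpl36a, Rpl27a, Rpl12, Rpl27 and Rpl5. Gm15500 stood at 175 TPM in replicate 2 and 209 in replicate 1, against 9.99 and 11.4 TPM of Rpl5. Rps23-ps1, of which 425 of 425 aligned bases match Rps23, stood at 239 and 304 TPM, against 64.7 and 68.5 TPM of the gene. Gm10275, identical over all 498 coding bases of Rpl12, had 149 and 171 TPM, against 19.4 and 26.6 TPM of Rpl12. In each of these cases the level of the copy in both libraries was above that of the gene in both. Rpl27 had 2 copies, listed at the same value of 80.3 TPM in replicate 2 and 88.5 in replicate 1, of which Gm11518 matches all 411 coding bases of the gene. Gm2000, annotated as protein-coding and so outside the count of copies, shares 68.5% of its stretches with members, mainly Rpl35. It was at 140 and 161 TPM and was chosen after its value was seen. In the estimated-count table Gm15500 was again above Rpl5, at 158 and 206 TPM against 102 in both libraries. Rps23-ps1 was below Rps23 there, at 16.8 and 118 against 339 and 326. Gm10275 was below Rpl12 in replicate 2 (83.6 against 104) and above it in replicate 1 (135 against 123). For the rest of the 11 members the copies were below the gene in both libraries of that table.

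In the gene table, counting the copies with the gene made the members more alike. With copies the coefficient of variation of the 77 members was 39.6% in replicate 2 and 40.3% in replicate 1, against 55.6% and 55.3% without them. The highest level was then 7.48 times the lowest in replicate 2 and 6.95 times in replicate 1, and the lowest member was Rpl37, which has no copy by this measure. Without copies, 7 members in replicate 2 and 8 in replicate 1 were under 1/3 of the median, including Rpl3, Rpl21, Rpl36a, Rpl27a, Rpl12, Rpl27 and Rpl5 in both. With copies 1 remained in replicate 2 and 0 in replicate 1. Rpl5 with its copy reached 185 and 220 TPM.

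**Figure D3:**
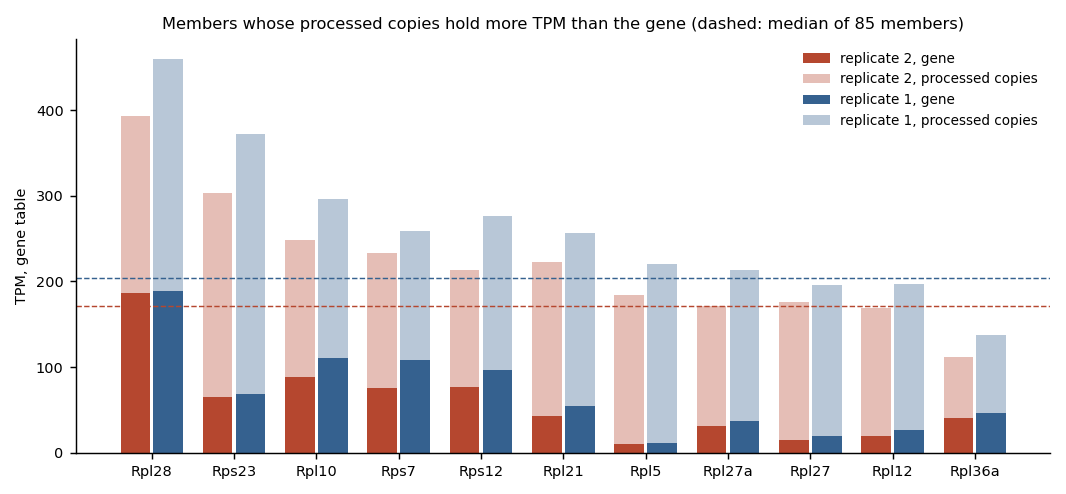
TPM in the gene table of the 11 members whose processed copies hold more TPM than the gene, with red bars for replicate 2 and blue bars for replicate 1. Dark parts are the gene and pale parts the copies; dashed lines are the medians of the 85 members, 171 and 203.5 TPM. Rpl5 alone is at 9.99 and 11.4, and with its copy at 185 and 220.

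The estimated-count table gave higher levels for most members. Across 82 members with a value in both tables the median difference was 1.40-fold (log2 0.49), estimated-count over gene table, beside a median log2 difference of 0.17 over 11081 nuclear protein-coding genes. At least 2-fold higher in both libraries were 16 of 82 members, where 1.0% of those genes were, and 2 were at least 2-fold lower, where 0.379% were. Rpl5 was 9.60-fold higher, at 102 TPM in both libraries in the estimated-count table. Rpl27 was 9.49-fold and Rpl27a 7.10-fold higher. Next were Rps23, at 339 and 326 TPM in the estimated-count table, and Rpl12, at 104 and 123. Rpl19, at 67.8 and 87.8 TPM in the estimated-count table against 190 and 216 in the gene table, and Rpl36, at 120 and 157 against 253 and 315, were the lower ones. Rps3 and Rplp1 were also lower, at 0.73-fold and 0.76-fold.

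The difference went with how much of the coding sequence is unique. Among 53 members with under 50% of their coding stretches unique, the median difference was 1.65-fold and 16 were at least 2-fold higher. Among 29 members with 50% or more unique, it was 1.27-fold and 0 were, and Rpl3l, unique throughout, had 177 and 227 TPM against 133 and 175 in the gene table. Rpl19 and Rpl36, the 2 members at least 2-fold lower, also had little unique sequence, at 19.1% and 29.7% of stretches. Which table is nearer to the RNA present was not tested. The count of 16 depends on scale: with both tables rescaled to nuclear protein-coding TPM it was 9. That rescaling moves all genes of a library alike, and the share of all genes at least 2-fold higher on it was not counted.

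**Figure D4:**
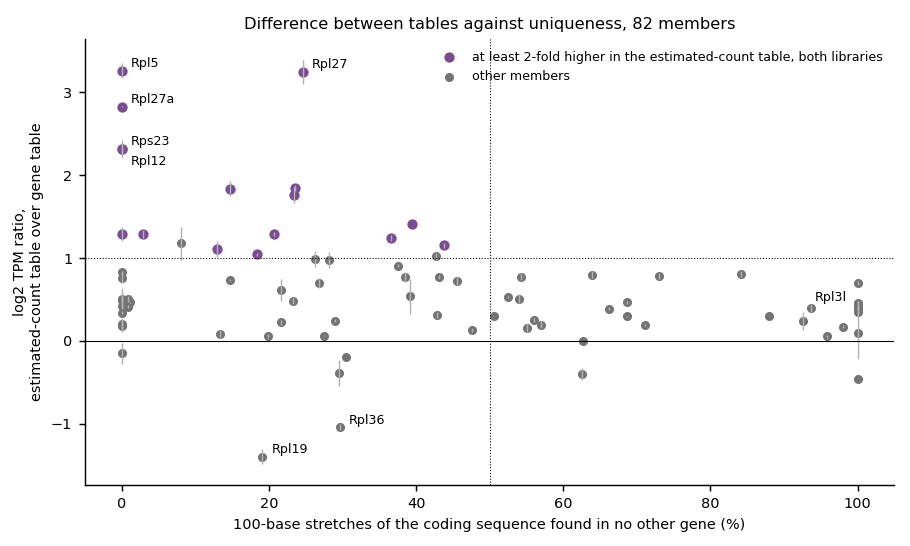
Log2 ratio of TPM, estimated-count table over gene table, against the percent of 100-base coding stretches found in no other gene, for 82 members. Points are means of the 2 libraries, grey lines join the libraries and purple marks the 16 members at least 2-fold higher. All 16 lie left of 50%, as do Rpl19 and Rpl36, the 2 members at least 2-fold lower.

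Most members were assigned to protein-coding transcripts, with exceptions. At 5 TPM or more the median share of protein-coding transcripts in a member's TPM was 98.8%, beside 95.1% over 7307 nuclear protein-coding genes, and 59 of 83 members were over 90%. For 13 members it was under 50%, the lowest being Rps16 at 1.64%, Rps20 at 2.13%, Rpl35 at 4.54%, Rps26 at 5.49% and Rpl37 at 12.2%. How many of all nuclear protein-coding genes were over 90% or under 50% was not counted. Rps26, a protein at the messenger RNA exit, was held at 93.5% in replicate 2 and 95.3% in replicate 1 by Rps26-202, a transcript of 596 bases annotated as a retained intron. Rps16 was divided between Rps16-203 at 62.9% and 55.3% and Rps16-202 at 35.9% and 42.6%, both also annotated as retained introns. For Rpl35, Rpl35-203, a processed transcript of 541 bases, held 103 of 108 TPM in replicate 2 and 142 of 148 in replicate 1. The listed protein-coding transcripts of these genes are longer, Rps16-201 at 1109 bases and Rpl35-201 at 946, so most of these genes' TPM was on the shorter models. The tables differed here too. In the estimated-count table the median share was 85.8%, Rpl24 was at 99.9% in both libraries against 25.3% and 27.7% in the gene table, and Rps27l-201 was at 0 with Rps27l-204, a processed transcript, at 99.3% and 99.7%.

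Between the libraries, ribosomal protein genes were mostly lower in replicate 2. By an exact binomial test on rounded counts with TMM-scaled library sizes and Benjamini-Hochberg adjustment over 12189 genes, 56 of 83 members were lower, where 15.9% of all tested genes were, and 3 were higher, where 10.7% were. The test compares these libraries and not conditions, treats counts as independent, and its p-values and intervals cover counting error only, with no estimate of the spread between hearts. The median log2 ratio of replicate 2 over replicate 1 was -0.17 for the members and -0.02 for all tested genes, and 72 of 83 members were below 0. Lower calls were 31 of 47 in the large subunit, 22 of 33 in the small subunit and 3 of 3 in the stalk. The differences were small, from -0.45 to 0.49 on the log2 scale, and the levels of the 85 members in both libraries ran together (Pearson's r of log2(TPM + 1) 0.996, Spearman's rho 0.982, across genes that are not independent).

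Rpsa, the small-subunit protein also known as laminin receptor, had the lowest ratio. It stood at 153 TPM in replicate 2 and 228 in replicate 1, with a log2 ratio of -0.45 (95% interval -0.50 to -0.40, adjusted p = 4.66e-68 by the exact binomial test). Rps7, Rpl37a, Rpl22l1 and Rps2 followed at -0.44, -0.42, -0.40 and -0.39. Rpl3l had -0.27 and Rpl3 -0.17, both called lower. At the other end Rpl31 had 178 TPM in replicate 2 and 174 in replicate 1 (log2 ratio 0.19, adjusted p = 0.000257 by the same exact test). Rpl17 was also called higher, at 0.11, while Rps27rt at 0.49 and Rpl34 at 0.11 were not called. These ratios use the gene without its copies, between which reads can be divided. Copies of Rps7 had 2453 counts in replicate 2 and 2336 in replicate 1, against 1636 and 2435 of the gene. Copies of Rpsa and Rps2 also had more counts in replicate 2, and those of Rpl31 and Rpl17 fewer. Copies of Rpl37a and Rpl3 were lower in replicate 2, as the genes were. Rpl22l1, Rps27rt, Rpl34 and Rpl3l had no copy by this measure.

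The size of this difference depended on the scaling. Spike-in counts as the scale moved the median of the members to -0.08 and that of all tested genes to 0.08, with 34 members lower and 9 higher, where 8.12% and 23.7% of all genes were. Total counts moved the members' median to -0.25 and that of all genes to -0.10, with 66 members lower and 1 higher, where 28.5% and 5.74% of all genes were. A change of scale moves all ratios by nearly the same amount, so the members' median stayed 0.15 below that of all genes by construction. On the TMM scale, where 15.9% of all tested genes were lower and 10.7% higher, markers of other cell types moved in the same direction. Erythroid markers were lower in replicate 2 in 5 of 5 tested and 6 listed (summed 7045 TPM in replicate 2 and 10875 in replicate 1). White adipocyte markers were lower in 5 of 5 tested and 6 listed (7.33 and 34.9) and macrophage markers in 4 of 5 (74.4 and 103). Their part in the difference was not tested. Of 5 cardiomyocyte markers 4 were lower and 1 higher.

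**Figure D5:**
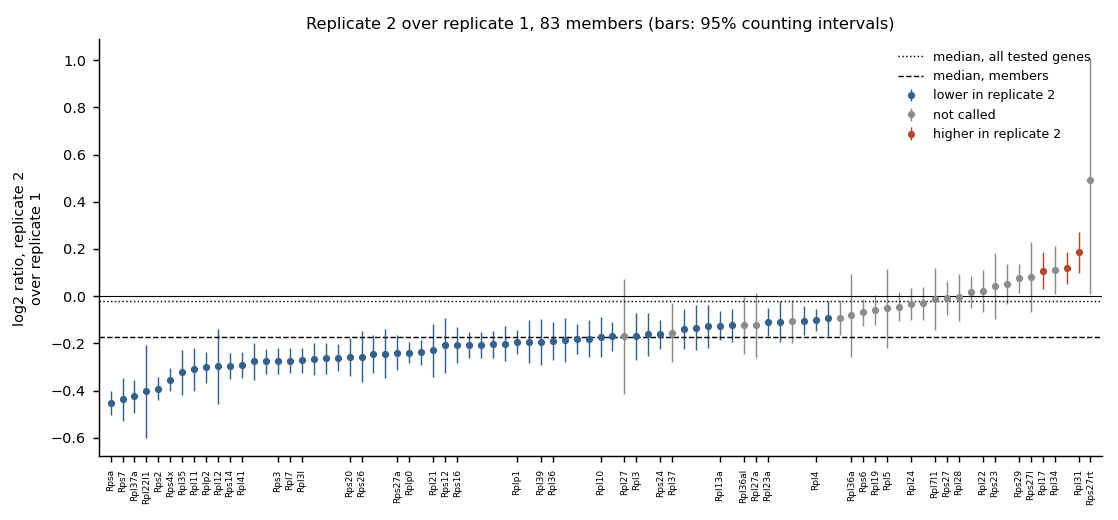
Log2 ratio of replicate 2 over replicate 1 for 83 members, sorted, with 95% counting intervals and the names of those in the text. Blue points are lower in replicate 2 by the exact binomial test, red points higher and grey points not called; the dashed line at -0.17 is the members' median and the dotted line at -0.02 the median of all tested genes.

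Proteins of the ribosome with other names had levels in the same range. Fau, a ubiquitin-like fusion to a small-subunit protein, stood at 190 TPM in replicate 2 and 249 in replicate 1, and the scaffold Rack1 at 131 and 159. Both were called lower in replicate 2, with log2 ratios of -0.26 and -0.25. The member Rps27a, a ubiquitin fusion of the small subunit, stood at 162 and 209.

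Elongation factors, many of whose messenger RNAs also begin with a pyrimidine tract, were called lower in 5 of 8 and higher in 1, where 15.9% and 10.7% of all tested genes were. Eef1a2, the form of the transfer RNA carrier used by adult muscle and neurons, stood at 590 TPM in replicate 2 and 627 in replicate 1, against 346 and 401 TPM of the general form Eef1a1. Eef1a2 was the gene called higher, at a log2 ratio of 0.04, while Eef1a1 and Eef1b2 had -0.19 and -0.30. Eef1g and Eef1d were at -0.18 and -0.11 and Eif5a at -0.07, all 3 called lower. Eef2, the translocation factor, at 387 and 428 TPM, and its kinase Eef2k, at 9.02 and 9.46, were not called, at -0.02 and 0.12.

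Regulators of these messenger RNAs were lower in 3 of 9, beside the 15.9% of all tested genes. Tpt1, itself an oligopyrimidine messenger RNA, stood at 964 TPM in replicate 2 and 1060 in replicate 1 (log2 ratio -0.06), the poly(A)-binding protein Pabpc1 at 52.6 and 72.9 (-0.23) and Larp4 at 18.99 and 23.7 (-0.21). Those not called had lower levels than most members: Larp1 was at 21.3 TPM in replicate 2 and 24.2 in replicate 1, Larp4b at 26.8 and 30.5, Mtor at 17.4 and 20.1 and Rptor at 10.8 and 13.7. The S6 kinases Rps6kb1 and Rps6kb2 were at 7.87 and 8.07 and at 5.27 and 6.90.

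Genes that build and load the ribosome were less abundant than its proteins. Initiation factors had a median of 38.8 TPM in replicate 2 and 45.9 in replicate 1, with 10 of 30 lower and 4 higher, the second near the 10.7% of all genes, and were led by Eif1 at 656 and 744, Eif4g2 at 365 and 405, Eif4g1 at 154 and 166 and Eif4a2 at 134 and 169. Ribosome assembly genes had a median of 7.41 and 8.44 TPM, with 5 of 30 lower, near the 15.9% of all genes, and 1 higher. Npm1 led at 51.7 and 60.7, followed by Ncl at 46.9 and 42.5, the gene called higher, then Sbds at 20.7 and 20.97 and Nop10 at 20.8 and 20.5. RNA polymerase I genes had a median of 8.46 and 8.67 TPM, with 1 of 11 lower, Polr1d at 22.2 and 28.8, and 1 higher, Polr1a at 15.9 and 16.1, beside 15.9% and 10.7% of all genes. Ubtf and Rrn3, which load that polymerase, stood at 18.2 and 20.1 and at 15.1 and 16.5.

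The starts of the genes carry the pyrimidine tract more often than other genes. RefSeq (GRCm38.p6) listed starts for 65 members by symbol. The tract was searched on the coding strand as a C followed by at least 5 pyrimidines, beginning within 5 bases of the annotated start. It was found at 27 of 65 members, or 41.5%, and at 11.9% of all 27025 genes in the same table. The windows below run from 10 bases before the annotated start to 20 from it, with the tract in capitals, and show a stalk gene, a gene of each subunit and 3 paralogs.
Rplp2: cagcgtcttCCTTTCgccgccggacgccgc
Rps6: gaagtcgggcCTCTTTTTCgtgacgcctcc
Rpl27a: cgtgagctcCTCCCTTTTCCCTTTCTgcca
Rpl22l1: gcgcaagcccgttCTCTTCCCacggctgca
Rps27rt: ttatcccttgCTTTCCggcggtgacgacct
Rpl3l: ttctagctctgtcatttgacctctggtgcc
Rpl3l, at the first of its 2 listed starts (chr17:24727816-24727845, plus strand), had no tract by this search, and neither had the second. The others lie on the same build at chr7:141447641-141447670 (Rplp2, plus), chr4:86857348-86857377 (Rps6, minus), chr7:109519185-109519214 (Rpl27a, plus), chr3:28805498-28805527 (Rpl22l1, plus) and chr9:114982720-114982749 (Rps27rt, minus). Members with a tract had a median of 178 TPM in replicate 2 and 189 in replicate 1, against 142 and 181 TPM of those without. Median log2 ratios of replicate 2 over replicate 1 were -0.18 with a tract and -0.17 without. These medians include paralogs, more of them without a tract. Rpl22l1 and Rps27rt had a tract, and Rpl3l, Rpl7l1, Rpl36al, Rps27l, Rpl10l and Rpl39l had none, the last 2 at 0 TPM. Between 250 bases before and 50 after the start, on either strand, CCGGAAG was found at 40.0% of the members and 9.93% of all genes, GGGCGG at 61.5% and 38.2%, AAGATGG at 15.4% and 7.28%, TATAAA at 10.8% and 15.7%, and CANNTG at 50.8% and 74.99%.

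Members also contained annotated genes of small nucleolar RNAs, which guide the modification of ribosomal RNA and are often cut from introns. An annotated snoRNA gene lay inside 30 of 85 members on the same strand, or 35.3%, and inside 1.97% of 11116 nuclear protein-coding genes at a mean of 1 TPM or more. Rpl4 held 5 of them and Rpl13a 4, of which none reached 1 TPM in both libraries, while the 2 inside Rps3 did. These counts describe the annotation and not the level of the snoRNAs. Host members had a median of 149 TPM in replicate 2 and 178 in replicate 1, against 188 and 215 TPM of the others. The members lay on 19 chromosomes, 14 of them on chromosome 7, and 4 on the X chromosome (Rpl10, Rpl36a, Rpl39 and Rps4x). Across the 77 members that are not paralogs, those of shorter effective length in the gene table had higher TPM. Spearman's rho was -0.44 in replicate 2 and -0.38 in replicate 1, and -0.42 and -0.41 with TPM of the estimated-count table. TPM is itself scaled by transcript length, so a negative rho is partly built in. Gene-table TPM also followed the unique share of the coding sequence, with rho of 0.33 in both libraries, against -0.03 and -0.01 with copies added; these values describe genes in the same 2 libraries.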

How the data were processed

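The deposited gene table and first transcript table of each library hold expected counts and TPM made by the authors from alignments to the transcriptome, on mm10 with GENCODE M21, per the deposited file list. A second deposited transcript table holds estimated counts and TPM and was summed per gene. Aligner and quantifier: not given in the sources used here. Effective lengths in the first table were 99 bases under the transcript length. Spike-in entries and entries outside the annotation were left out of library sizes. Expected counts were rounded, scaled by TMM (edgeR 4.0.16, R 4.3.3) and compared between the libraries by an exact conditional binomial test (scipy 1.17.1), two-sided, with Benjamini-Hochberg adjustment at 0.05 over 12189 genes whose mean TPM was 1 or more. Log2 ratios used a prior count of 2. DESeq2 1.42.0 size factors, total counts and spike-in counts were other scales. Uniqueness was counted over 100-base stretches of GENCODE M21 transcripts. Coding sequences, of the protein-coding transcript with the highest TPM, were aligned with Biopython 1.88. The test was checked on data simulated with counting error only, so the check does not cover any other spread between the libraries.

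Named genes were all paralogs with their partners, the 10 highest and 5 lowest members at 1 TPM or more and those under it. The rule also took the 5 highest and 5 lowest ratios, the 5 largest table differences each way, the 5 lowest protein-coding shares, the 5 copies with most counts and the leading genes of the other lists. Some genes that this rule takes are not reported here. Other members named as examples were chosen after their values were seen. The members and lists were chosen with earlier results of these data known. Each library has its counts given beside its values, and with 2 libraries the SD is itself uncertain.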

Additional observations from a re-analysis of the deposited data

How the results depend on the processing

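The members' share of nuclear protein-coding TPM was 4.62% in the estimated-count table and 4.90% with copies added, and 1.15% of counts. Their median was 251 TPM in the estimated-count table and 484 when rescaled to nuclear protein-coding TPM. The Rpl3l share stayed over 50% in each alternative: 69.6% in the estimated-count table, 78.1% by counts, 73.5% with protein-coding transcripts only, and, chosen after seeing the data, 60.7% with copies in the gene table and 60.9% in the estimated-count table. The members' median log2 ratio was -0.077 on the spike-in scale, with 34 lower and 9 higher, where 8.12% and 23.7% of all tested genes were. By total counts 1 member was higher, where 5.74% of all tested genes were. With both tables rescaled, the members' median log2 difference was 0.16, with 9 members at least 2-fold higher. The share of all genes on that scale was not counted. Without rescaling the median was 0.49, and it was 0.44 to 0.48 with 1 replicate left out. Copies held 9.88% of counts at 80% of stretches shared and 5.27% in the estimated-count table. The protein-coding transcript share was 85.8% there. No paired analysis was possible because there is 1 group. The Rpl36al share of its pair crossed 50%, at 47.7% in the estimated-count table and 40.5% with copies against 66.05% in the gene table, and the median log2 ratio of all tested genes changed sign on the spike-in scale, at 0.075 against -0.02.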
